A study of Mus musculus with 12 samples.

Results

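The genes described are those of the mitochondrial ribosomal proteins, taken as all genes whose name on the array is Mrpl or Mrps with a number and, for some, a letter a to c. There were 75 such genes of 27539 gene names on the array, 46 named for the large subunit (Mrpl) and 29 for the small subunit (Mrps). The names were used as they stand, and a name need not give the subunit in which a protein is found. For example, Mrps18a is named for the small subunit but is found in the large one. Mrps36 is now known as a component of the 2-oxoglutarate dehydrogenase complex. Mitoribosomal proteins that the array lists under other names, such as Dap3, were put in a separate list.

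Mitochondrial ribosomes make the few proteins that are encoded by mitochondrial DNA, all of them subunits of the respiratory chain and the ATP synthase. Their RNAs come from mitochondrial DNA, but every one of their proteins is encoded in the nucleus, made in the cytosol and imported. The large subunit joins amino acids and the small subunit reads the messenger RNA, and many of the proteins have no counterpart in bacterial ribosomes. Mouse embryos that cannot carry out mitochondrial translation die early in development, not long after the stage sampled here.

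RNA was measured in cells of a pool of about 300 CD-1 mouse embryos from 25 litters at embryonic day 7.5, sorted with antibodies to 2 surface proteins. Endoglin, encoded by Eng, helps receptors of the TGF-beta family bind their ligands. Flk1, encoded by Kdr, binds vascular endothelial growth factor. Precursors of blood and vessels carry both. The 4 fractions carried both proteins (Eng+Flk1+), Flk1 alone (Eng-Flk1+), Endoglin alone (Eng+Flk1-) or neither (Eng-Flk1-), with 3 samples of 3000 cells each. The cDNA of each sample was amplified by PCR and put on an array of its own, read in 1 colour. The labels give no mutation or treatment, and all samples came from the same pool, so the p-values below measure the spread between sorted samples, which may be technical, and not that between embryos.

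A level below is the log2 of a probe's signal minus the log2 of the 75th percentile of its array, so that a probe at level 0 is as bright as the 75th percentile. It can be compared between arrays for 1 probe but not between probes. A difference of 1 in level is a doubling. Changed means an adjusted p under 0.05 in limma over the 22720 genes tested. In bulk samples fewer cells with a transcript and less of it per cell cannot be told apart.

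The sequences that carry the main result are the array probes of the 3 members that differed from Eng-Flk1- in all 3 comparisons with it, each 60 bases long and written 5′ to 3′ as the array files give them. Mrpl30 was read by a single probe at chr1:37839880-37839939, Mrpl33 by a probe at chr5:31899133-31899192 and Mrpl37 by a probe at chr4:106558565-106559866, all on build mm8. The Mrpl37 positions lie further apart than the probe is long, so its bases are not 1 stretch of the genome; whether any probe lies in a coding exon or a UTR was not analysed here.
Mrpl30: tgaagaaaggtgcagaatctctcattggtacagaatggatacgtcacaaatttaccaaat
Mrpl33: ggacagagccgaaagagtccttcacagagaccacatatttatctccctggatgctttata
Mrpl37: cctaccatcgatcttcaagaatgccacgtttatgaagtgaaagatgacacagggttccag

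The members were widely detected. Each of the 75 was well above background throughout at least 1 fraction (3 of 3 arrays), and so none was lost to the filter on dim genes. On all 12 arrays, 64 were well above background, which is 85.3% of the members against 63.9% of all gene names. The exceptions lay mostly in Eng-Flk1-, since 74 or 75 members were well above background on each array of the 3 other fractions, against 65 to 72 on an Eng-Flk1- array. Of all spots, 80.2% to 83.3% were well above background on these 9 arrays, against 66.5% to 76.3% on the Eng-Flk1- arrays, which were thus dimmer as a whole. Within-fraction correlations over all genes were 0.845 to 0.932 in the 3 fractions and 0.67 to 0.737 in Eng-Flk1-. How far this lower detection accounts for the lower members in Eng-Flk1- was not tested.

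The Eng-Flk1- fraction had the lowest level of mitoribosomal protein transcripts on this scale. The median level over the 75 members was 1.18, 0.351 and 0.799 on the Eng+Flk1+ arrays, 1.39, 0.802 and 1.33 on the Eng-Flk1+ arrays, 1.28, 1.21 and 1.12 on the Eng+Flk1- arrays, and 0.0335, -0.0664 and -0.539 on the Eng-Flk1- arrays. All 3 Eng-Flk1- arrays thus lay below the 9 others, and Eng+Flk1+ spanned the widest range of the rest. As means over arrays the medians were 0.777 ± 0.415 for Eng+Flk1+, 1.17 ± 0.324 for Eng-Flk1+, 1.2 ± 0.0802 for Eng+Flk1- and -0.191 ± 0.306 for Eng-Flk1- (SD, n = 3 each). The median of all genes tested moved less, between -1.14 and -0.899 on the 9 arrays and between -1.58 and -1.23 on the Eng-Flk1- arrays. The order did not hold for 1 array under another scaling. In the authors' deposited table, which divides by the array median, Eng+Flk1+ replicate 2 had a log2 member median of 2.35, against 2.64, 2.5 and 2.61 on the Eng-Flk1- arrays, and the 8 other arrays were at 2.98 or above. Relative to the median of all genes on its array, that replicate was at 1.25, against 1.26, 1.16 and 1.04 on the Eng-Flk1- arrays.

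**Figure D1:**
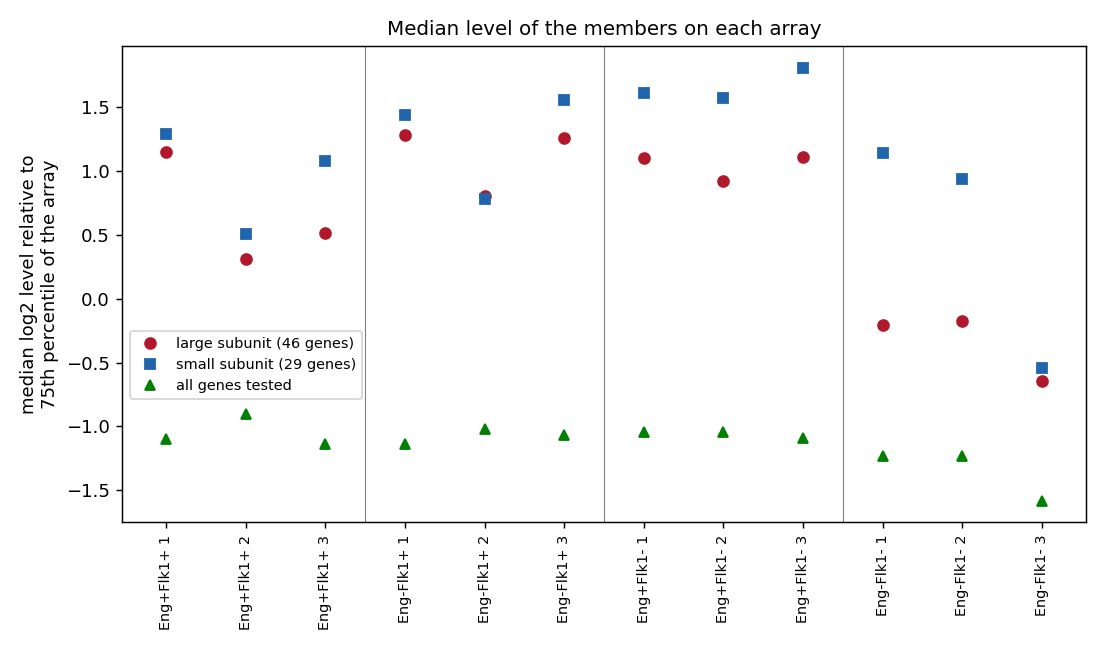
Median log2 level on each array (y axis, 0 at the array's 75th percentile) of the 46 large subunit members (circles), the 29 small subunit members (squares) and all genes tested (triangles), with the 12 arrays along the x axis. The large subunit median is above 0 on 9 arrays and below it on the 3 Eng-Flk1- arrays, and the small subunit median falls below 0 on Eng-Flk1- replicate 3 alone.

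Taken apart, the large subunit median was at least 0.308 on each of the 9 other arrays, against -0.204, -0.178 and -0.647 on the Eng-Flk1- arrays. The small subunit median was 0.504 to 1.81 on the 9 arrays, against 1.14, 0.935 and -0.539 on the Eng-Flk1- arrays, of which replicates 1 and 2 thus lay within the range seen elsewhere. Whether the subunits differ was not tested.

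Gene by gene, Eng-Flk1- had the lowest mean of the 4 fractions for 38 members (25 large, 13 small) and the highest for 14 (9 large, 5 small). Eng+Flk1+ was lowest for 22, Eng+Flk1- for 11 and Eng-Flk1+ for 4. For 9 members all 3 Eng-Flk1- arrays lay below the 9 others, an order that 2.87% of all genes tested showed. These were the 8 members described next and Mrpl55, another protein of the large subunit. The order held for 7 of the 8 with quantile scaling and in the authors' table (all but Mrpl41), and for 5 with normexp background (not Mrpl3, Mrpl41 or Mrpl48). The reverse order held for Mrpl27 alone, against 3.53% of all genes.

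**Figure D2:**
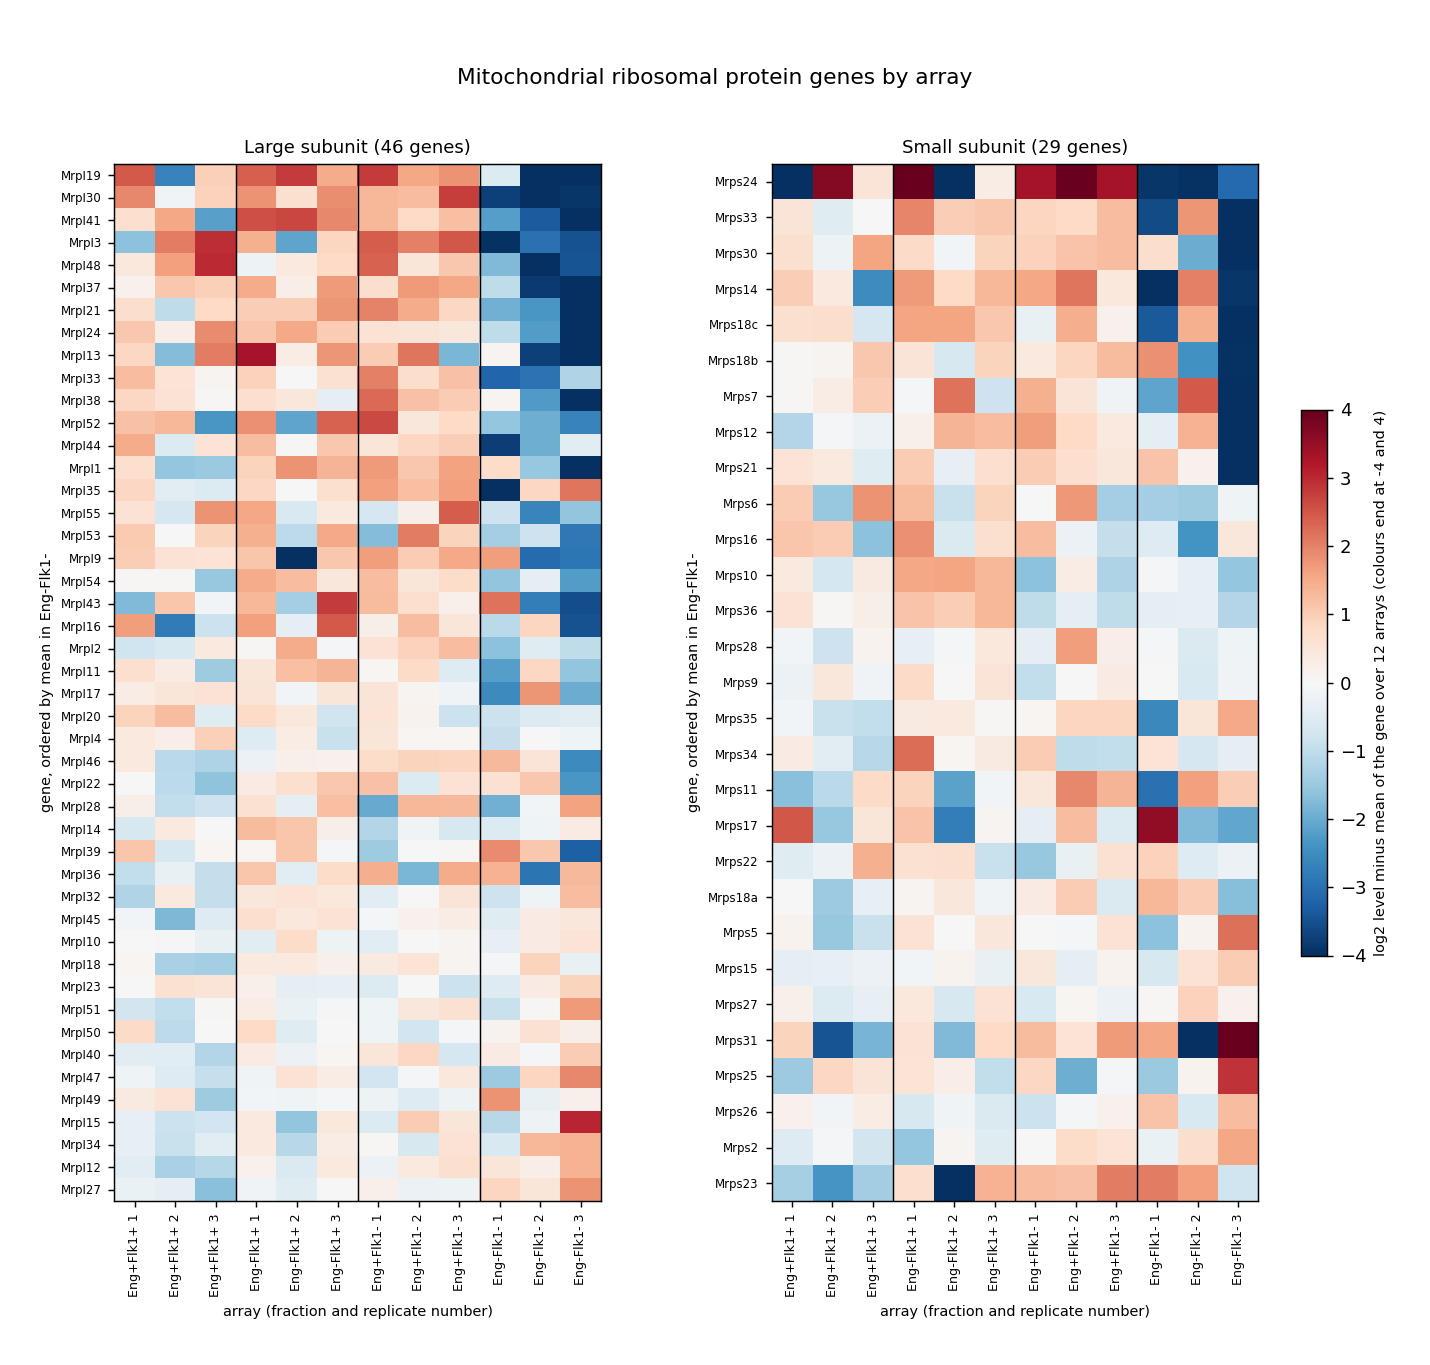
Log2 level of each member on each of the 12 arrays minus the mean of that member over the arrays (colour, from -4 to 4), large subunit genes on the left and small subunit genes on the right, sorted from the lowest to the highest Eng-Flk1- mean. The upper rows are low on the Eng-Flk1- arrays at the right of each panel, on all 3 arrays for 9 large subunit genes and on 1 or 2 arrays for many small subunit genes.

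Against Eng-Flk1-, members rose in all 3 other fractions and none fell, where 0.409% of all genes fell in Eng+Flk1+, 0.273% fell in Eng-Flk1+ and 0.224% fell in Eng+Flk1-. In Eng+Flk1- 7 members were higher (Mrpl21, Mrpl3, Mrpl30, Mrpl33, Mrpl37, Mrpl41 and Mrpl48), which is 9.33% of the members, where 1.24% of all genes tested rose and 1.46% changed either way. In Eng-Flk1+ 6 members were higher (Mrpl21, Mrpl24, Mrpl30, Mrpl33, Mrpl37 and Mrpl41), or 8% of the members, against 1.64% of all genes that rose and 1.91% that changed. In Eng+Flk1+ 5 members were higher (Mrpl24, Mrpl30, Mrpl33, Mrpl37 and Mrpl48), or 6.67%, against 1.98% and 2.39% of all genes. The 3 comparisons share the Eng-Flk1- arrays, so they are not independent of each other. All 8 members called on their brightest probe are large subunit genes: 8 of 46, and 0 of 29 in the small subunit by limma. At an unadjusted p under 0.05, 2, 7 and 4 of the 29 small subunit genes differed in the double-positive, Flk1-only and Endoglin-only fractions, all but 1 of them higher. Of all genes, 15.5%, 17.7% and 14.4% differed at that limit, in either direction.

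The counts moved with single arrays. The 7 calls for Eng+Flk1- became 12 when Eng-Flk1- replicate 1 was left out and 12 when replicate 2 was, and 4 with replicate 3 left out. They became 3 with Eng-Flk1+ replicate 3 left out, and 1, 2 and 2 when the single arrays of Eng+Flk1- were. The 6 calls for Eng-Flk1+ became 11 and 12 when Eng-Flk1- replicates 1 and 2 were dropped in turn, 1, 2 and 2 when its own arrays were, and 4 with Eng+Flk1+ replicate 3 or with Eng+Flk1- replicates 2 or 3 dropped. The 5 calls for Eng+Flk1+ became 9 when Eng-Flk1- replicate 1 was dropped, and 3, 3 and 2 when its own arrays were. They became 3 with Eng-Flk1+ replicate 1 or 3 dropped, and 3 with any single array of Eng+Flk1- dropped.
The arrays lay on 3 slides. Slide 1 held the 3 Eng-Flk1- arrays and Eng-Flk1+ replicate 1, while neither Endoglin-positive fraction shared a slide with Eng-Flk1-. With the slide as a block in the model no member was called by limma in any comparison, and 9, 19 and 8 members reached an unadjusted p under 0.05 in the double-positive, Flk1-only and Endoglin-only fractions, which is 12%, 25.3% and 10.7% of them, where 5.57%, 9.16% and 4.43% of all genes did. Few genes of any kind were called in that fit: 16 of all genes in Eng-Flk1+ and 0 in both Endoglin-positive fractions. Within slide 1, Eng-Flk1+ replicate 1 lay above all 3 Eng-Flk1- arrays for 33 members and below them for 5, by a median difference of 1.41. Of all genes, 19.6% lay above all 3 and 32% below, with a median difference of -0.261. A limma fit within slide 1 takes its spread from the 3 Eng-Flk1- arrays alone, so that the lack of calls there (0 members) says little; 9 members (12%) had an unadjusted p under 0.05, where 5.28% of all genes did.

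Mrpl30, which has a counterpart in the bacterial large subunit, gave the clearest difference. Its level was 1.67, -0.37 and 0.69 on the Eng+Flk1+ arrays, 1.56, 0.40 and 1.61 on the Eng-Flk1+ arrays, 1.08, 0.98 and 2.53 on the Eng+Flk1- arrays, and -3.98, -4.92 and -4.13 on the Eng-Flk1- arrays. The 3 Eng-Flk1- arrays were close together and lay far below the 9 others, which overlapped each other, although the probe was well above background on all 12 arrays. Against Eng-Flk1-, the log2 fold was 5.01 ± 0.65 in Eng+Flk1+ (SE, adjusted p = 0.00341), 5.53 ± 0.65 in Eng-Flk1+ (adjusted p = 0.00325) and 5.87 ± 0.65 in Eng+Flk1- (adjusted p = 0.00257), or 32.2-fold, 46.2-fold and 58.7-fold. Of the 8 members, Mrpl30 alone was called in each of the 3 comparisons whichever of the 12 arrays was left out. It lost the call with the slide as a block, at adjusted p = 0.455 for Eng+Flk1+, 0.104 for Eng-Flk1+ and 0.729 for Eng+Flk1-. Within slide 1 its log2 fold was 5.90.

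Mrpl33, also shared with bacteria, had levels of 2.88, 2.18 and 1.74 in Eng+Flk1+, 2.56, 1.64 and 2.23 in Eng-Flk1+, 3.65, 2.33 and 2.80 in Eng+Flk1-, and -1.54, -1.33 and 0.44 in Eng-Flk1-. All Eng-Flk1- arrays lay below the others, with replicate 3 nearest to them. The log2 fold against Eng-Flk1- was 3.07 ± 0.61 in Eng+Flk1+ (adjusted p = 0.0292), 2.95 ± 0.61 in Eng-Flk1+ (adjusted p = 0.0387) and 3.74 ± 0.61 in Eng+Flk1- (adjusted p = 0.0169). A second, dimmer probe of Mrpl33 did not show this, with log2 folds of -0.93, -0.95 and -0.62 in the same order (adjusted p = 0.428, 0.413 and 0.618); its spot on Eng-Flk1+ replicate 1 was set aside as an outlier. With each of the 12 arrays left out in turn, Mrpl33 was called in 7 fits for Eng+Flk1+, 3 for Eng-Flk1+ and 10 for Eng+Flk1-.

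Mrpl37, a protein found in mitochondrial but not in bacterial ribosomes, had levels of -0.68, 0.23 and 0.11 in Eng+Flk1+, 0.63, -0.57 and 0.86 in Eng-Flk1+, -0.12, 0.85 and 0.70 in Eng+Flk1-, and -1.86, -4.66 and -5.54 in Eng-Flk1-. The groups did not overlap, but the probe was well above background on only 2 of the 3 Eng-Flk1- arrays. The log2 fold against Eng-Flk1- was 3.91 ± 0.84 in Eng+Flk1+ (adjusted p = 0.0405), 4.33 ± 0.84 in Eng-Flk1+ (adjusted p = 0.0295) and 4.50 ± 0.84 in Eng+Flk1- (adjusted p = 0.0294). Mrpl37 was called in 2, 8 and 7 of the 12 fits that left out an array, in the same order.

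**Figure D3:**
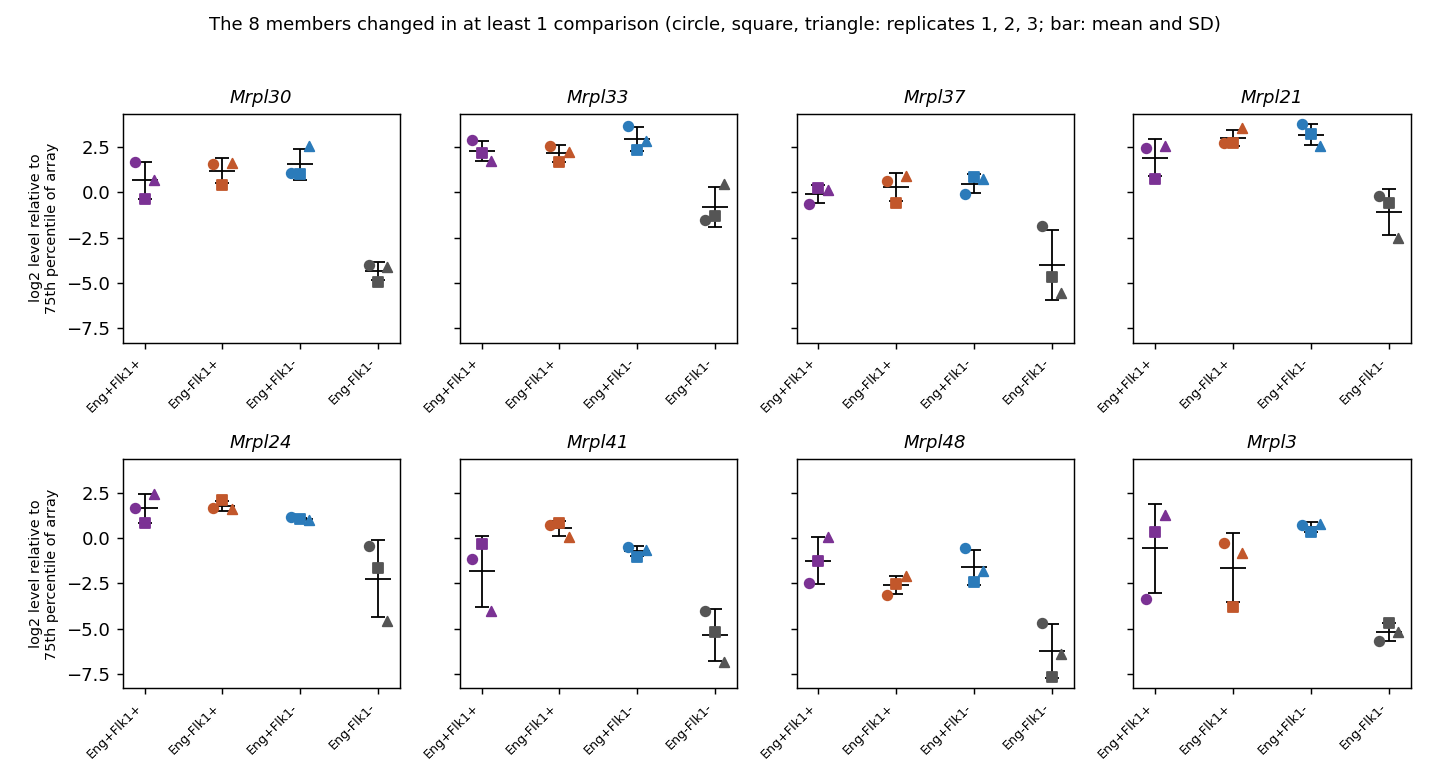
Log2 level (y axis, 0 at the array's 75th percentile) of the 8 members changed in at least 1 comparison, by fraction (x axis); points are single arrays, horizontal bars the mean of 3 arrays and whiskers the SD. In each panel the 3 Eng-Flk1- arrays at the right lie below the 9 others, an order that did not hold for Mrpl41 in the authors' table or with quantile scaling, nor for Mrpl3, Mrpl41 and Mrpl48 with normexp background.

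The 5 other members were called in 1 or 2 of the 3 comparisons. Mrpl21, a protein with a bacterial counterpart, had levels of 2.45, 0.72 and 2.54 in Eng+Flk1+, 2.72, 2.71 and 3.51 in Eng-Flk1+, 3.73, 3.22 and 2.56 in Eng+Flk1-, and -0.19, -0.58 and -2.51 in Eng-Flk1-. It was called in Eng-Flk1+ (log2 fold 4.07 ± 0.71, adjusted p = 0.0178) and Eng+Flk1- (4.26 ± 0.71, adjusted p = 0.0173), and missed the threshold in Eng+Flk1+ (3.00 ± 0.71, adjusted p = 0.0587), where replicate 2 was the lowest of the 9 arrays. These calls held in 9 and 10 of the 12 fits without an array.
Mrpl24, likewise shared with bacteria, had levels of 1.63, 0.83 and 2.43 in Eng+Flk1+, 1.66, 2.06 and 1.58 in Eng-Flk1+, 1.13, 1.06 and 1.01 in Eng+Flk1-, and -0.46, -1.68 and -4.59 in Eng-Flk1-, with replicate 3 far below the rest. It was called in Eng+Flk1+ (3.87 ± 0.87, adjusted p = 0.0484) and Eng-Flk1+ (4.01 ± 0.87, adjusted p = 0.0472). Leaving out an array ended these calls in 9 of 12 fits for each comparison.

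Mrpl41, a mitochondria-specific protein of the large subunit, had levels of -1.18, -0.31 and -4.03 in Eng+Flk1+, 0.73, 0.81 and 0.07 in Eng-Flk1+, -0.52, -1.05 and -0.65 in Eng+Flk1-, and -4.04, -5.16 and -6.84 in Eng-Flk1-. Eng+Flk1+ replicate 3 nearly reached the highest Eng-Flk1- array, where the probe was well above background on 2 of 3 arrays. The log2 fold against Eng-Flk1- was 5.88 ± 0.93 in Eng-Flk1+ (adjusted p = 0.0116) and 4.60 ± 0.93 in Eng+Flk1- (adjusted p = 0.0419), calls that held in 11 and 4 of the 12 fits.
Mrpl48, another mitochondria-specific protein, had levels of -2.50, -1.29 and 0.06 in Eng+Flk1+, -3.13, -2.51 and -2.11 in Eng-Flk1+, -0.55, -2.45 and -1.84 in Eng+Flk1-, and -4.68, -7.63 and -6.38 in Eng-Flk1-. Only 1 of the 3 Eng-Flk1- arrays was well above background. The log2 fold was 4.99 ± 0.86 in Eng+Flk1+ (adjusted p = 0.0146) and 4.62 ± 0.86 in Eng+Flk1- (adjusted p = 0.0292), which held in 11 and 7 of the 12 fits.

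Mrpl3, whose bacterial counterpart lies near the centre that forms peptide bonds, had levels of -3.34, 0.35 and 1.26 in Eng+Flk1+, -0.28, -3.79 and -0.83 in Eng-Flk1+, 0.72, 0.32 and 0.79 in Eng+Flk1-, and -5.65, -4.68 and -5.16 in Eng-Flk1-. A single array in each of the Flk1-positive fractions came near the Eng-Flk1- arrays, of which 1 of 3 was well above background. The call was in Eng+Flk1- alone (log2 fold 5.78 ± 1.16, adjusted p = 0.0402) and ended in 8 of the 12 fits that left out an array. The dimmer probes of Mrpl3 were not called there (adjusted p = 0.139, 0.87 and 0.242 in limma). The probe at 0.87 went the other way, with a mean level of -5.03 in Eng+Flk1- against -3.98 in Eng-Flk1-.

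Over all members the folds against Eng-Flk1- were positive on balance. The median log2 fold was 0.661 in Eng+Flk1+ with 46 of 75 positive, 1.00 in Eng-Flk1+ with 53 positive and 0.796 in Eng+Flk1- with 52 positive, where the medians of all genes were -0.0643, -0.129 and -0.062. For the large subunit the medians were 0.867, 1.11 and 1.09, and for the small subunit 0.275, 0.674 and 0.762. Without Eng-Flk1- replicate 3 the median in Eng+Flk1+ was 0.276. An unadjusted p under 0.05 with a higher level was reached by 15, 24 and 20 members (20%, 32% and 26.7%), where 9.35%, 9.69% and 8.84% of all genes reached it. With a lower level it was reached by 3, 2 and 0 members (4%, 2.67% and 0%), where 6.18%, 8% and 5.54% of all genes did.
The authors' table of the same arrays, which is scaled to each array's median, shifts all genes in these comparisons: their medians are -0.658, -0.736 and -0.628 there. The members' medians on that scale were 0.0671, 0.398 and 0.230, still above those of all genes, and 38, 43 and 42 of 75 folds were positive. Arrays that did not overlap were higher for 12 members in Eng+Flk1+, 17 members in Eng-Flk1+ and 19 members in Eng+Flk1-, where 8.88%, 9.43% and 8.95% of all genes were. They were lower for 4, 1 and 2 members, against 9.24%, 12.6% and 10.1% of all genes.

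**Figure D4:**
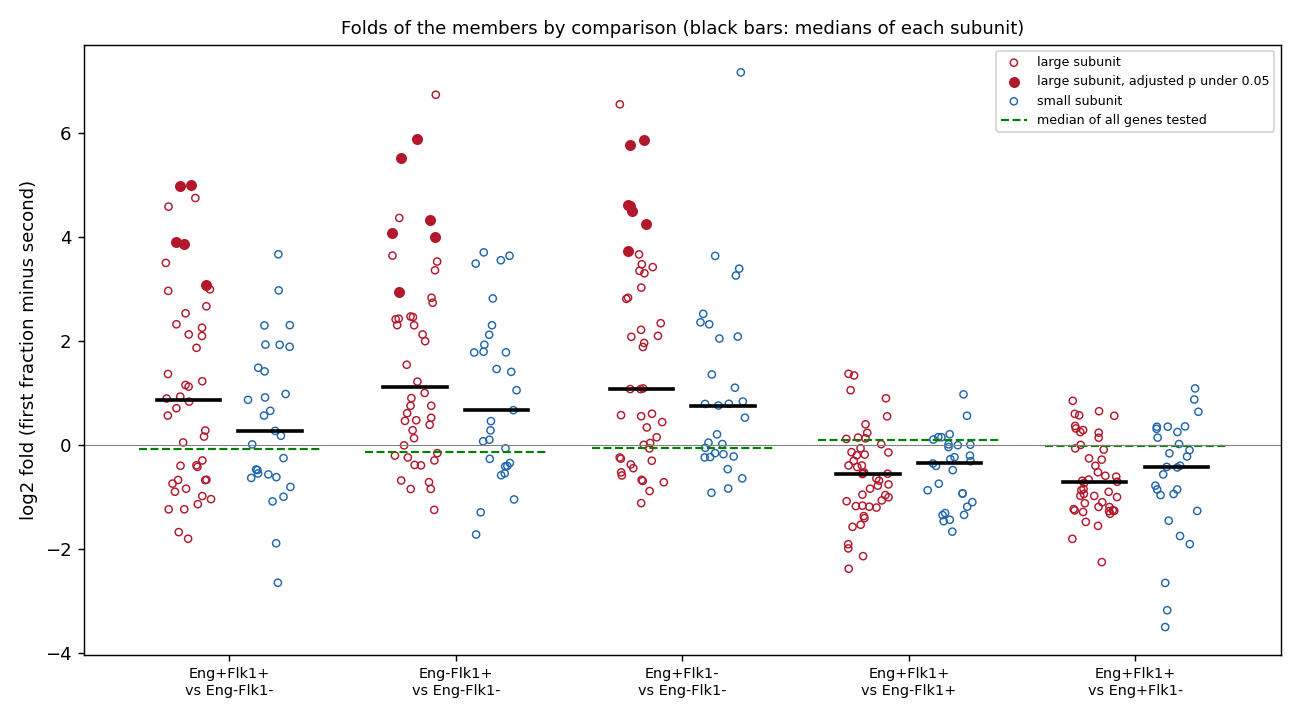
Log2 fold of each member (y axis, first fraction minus second) in 5 comparisons (x axis), large subunit (left of each pair) and small subunit (right), filled where the adjusted p was under 0.05; black bars are medians of each subunit and dashed lines the median of all genes. The medians lie above the dashed line in the 3 comparisons with Eng-Flk1- and below it in the 2 comparisons of Eng+Flk1+ with the single-positive fractions.

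No small subunit gene was called by limma on its brightest probe (dimmer probes of Mrps17 and Mrps9 were, as given further on), but several had folds as large as the called ones. Mrps24, whose bacterial counterpart lies where messenger RNA enters, had levels of -8.28, -0.52 and -3.66 in Eng+Flk1+, -0.04, -8.42 and -3.89 in Eng-Flk1+, -0.87, -0.24 and -0.85 in Eng+Flk1-, and -8.06, -8.12 and -7.28 in Eng-Flk1-. It was not well above background on any Eng-Flk1- array, nor on 1 array of each Flk1-positive fraction, and its 3 Eng+Flk1- arrays lay above the Eng-Flk1- arrays. With each Eng-Flk1- value raised to the dimmest probe well above background on its array, it was at least 30.2-fold higher in Eng+Flk1-. The limma test, on the values as measured, did not pass (adjusted p = 0.144).
In the large subunit Mrpl19 had a log2 fold of 6.56 ± 1.61 in Eng+Flk1- (adjusted p = 0.083) and 6.74 ± 1.61 in Eng-Flk1+ (adjusted p = 0.0684), with Eng-Flk1- levels of -1.81, -8.15 and -7.35, 1 of them well above background.

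In several genes named for the small subunit the Eng-Flk1- arrays went apart from each other. Mrps33 was 1.88 to 3.06 in the single-positive fractions, against -2.48, 2.85 and -4.0 on the Eng-Flk1- arrays. On the same arrays Mrps18c was -1.71, 3.06 and -2.70, and Mrps7 was -1.19, 3.38 and -3.92. In each of the 3 genes replicate 2 was high and replicates 1 and 3 were low.
Mrps21 was 3.23, 2.26 and -3.18, Mrps12 was 1.80, 3.57 and -2.92, and Mrps30 was 1.51, -1.20 and -4.81, with replicate 3 the lowest.

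A range of over 4 in level between the 3 arrays of a fraction, a limit chosen after the values were seen, was reached by 6 members in Eng+Flk1+, 5 members in Eng-Flk1+, 0 members in Eng+Flk1- and 26 members in Eng-Flk1- (34.7%, where 21.9% of all genes reached it). In Eng-Flk1- it was 13 of 46 large and 13 of 29 small subunit genes. The lowest of the 3 arrays was replicate 3 for 15 of the 26, replicate 1 for 7 and replicate 2 for 4. Respiratory chain and ATP synthase genes were alike in this, with 27 of 79 (34.2%), while none of 81 cytosolic ribosomal protein genes had such a range.
The median SD of a member was 0.782 for Eng+Flk1+, 0.6 for Eng-Flk1+, 0.533 for Eng+Flk1- and 1.44 for Eng-Flk1-, where that of all genes was 0.668, 0.577, 0.563 and 1.01. Because 1 spread per gene was fitted over all fractions, the errors of genes that varied most in Eng-Flk1- are understated there.

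The 3 Mrps18 genes, which encode variants of a single bacterial protein, showed no call. In Eng-Flk1+ against Eng-Flk1- the log2 fold was -0.06 for Mrps18a (adjusted p = 0.98), 1.78 for Mrps18b (adjusted p = 0.45) and 3.49 for Mrps18c (adjusted p = 0.19). Mrps18b was at least 0.98 on the Eng-Flk1+ arrays, against 3.44, -0.82 and -2.34 on the Eng-Flk1- arrays. Mrps18a was at least 1.16 on the Eng-Flk1+ arrays, against 2.63, 2.31 and -0.39 on the Eng-Flk1- arrays. Both genes thus had Eng-Flk1- arrays on either side of the Eng-Flk1+ arrays. All these values are of the brightest probes. The dimmer Mrps18b probes were not higher in Eng-Flk1+, with mean levels of 0.35 and -2.72 against 1.27 and -2.64 in Eng-Flk1-. The dimmer Mrps18c probe was, at -0.75 against -1.99.

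Some members were highest in Eng-Flk1-. Mrpl27, a protein with a counterpart in bacteria, had levels of 2.03, 1.94 and 0.62 in Eng+Flk1+, 2.15, 1.81 and 2.31 in Eng-Flk1+, 2.49, 2.07 and 2.10 in Eng+Flk1-, and 3.14, 2.76 and 4.09 in Eng-Flk1-. Every Eng-Flk1- array lay above the 9 others, yet no call was made. The log2 fold against Eng-Flk1- was -1.80 ± 0.50 in Eng+Flk1+ (adjusted p = 0.11), -1.24 ± 0.50 in Eng-Flk1+ (adjusted p = 0.242) and -1.12 ± 0.50 in Eng+Flk1- (adjusted p = 0.349).
The other members with the lowest folds that were well above background on all 6 arrays were Mrps23 (-2.65) and Mrps31 (-1.89) in Eng+Flk1+, Mrps23 (-1.72) and Mrps2 (-1.29) in Eng-Flk1+, and Mrps25 (-0.92) and Mrpl49 (-0.88) in Eng+Flk1-, none of them called. The dimmer Mrps25 probe went the other way, with a mean level of -3.52 in Eng+Flk1- against -5.87 in Eng-Flk1-, where 1 array was well above background. So did 1 dimmer Mrpl49 probe, at 1.19 against -0.76, while another did not, at 0.81 against 1.23.

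Between the double-positive and the single-positive fractions no member was called. Against Eng-Flk1+, Eng+Flk1+ had a median log2 fold of -0.524 with 56 of 75 members negative, where the median of all genes was 0.0973. Against Eng+Flk1- the median was -0.662 with 53 negative, where that of all genes was -0.0179. The background of calls by limma was low too: against Eng-Flk1+ 0.0264% of all genes changed (0.0088% higher, 0.0176% lower), and against Eng+Flk1- 0.268% did (0.154% higher, 0.114% lower). An unadjusted p under 0.05 was reached by 0 members that were higher and 5 that were lower against Eng-Flk1+ (0% and 6.67%, where 2.37% and 2.4% of all genes did), and by 1 and 4 against Eng+Flk1- (1.33% and 5.33%, where 3.66% and 2.94% of all genes did). Both comparisons use the same Eng+Flk1+ arrays. Without Eng-Flk1+ replicate 1 the median against that fraction was -0.342, and without its replicate 2 it was -0.811.
Subunit medians were -0.552 (large) and -0.352 (small) against Eng-Flk1+, and -0.716 and -0.418 against Eng+Flk1-. For 45 members the Eng+Flk1+ mean lay below both single-positive means, and for 11 above both. Arrays that did not overlap were lower in Eng+Flk1+ for 16 members against Eng-Flk1+ and for 17 against Eng+Flk1-, where 6.42% and 7.41% of all genes were lower, and higher for 1 and 2 members, where 7.35% and 7.77% of all genes were. Of the Eng+Flk1+ arrays, replicate 2 had the lowest member median (0.351).

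Within slide 2, which holds 2 arrays of Eng+Flk1+ and 2 of Eng-Flk1+, the median was -0.351. Within slide 3, which holds 1 Eng+Flk1+ array and the 3 Eng+Flk1- arrays, it was -0.783. Respiratory chain and ATP synthase genes had medians of -0.514 and -0.46 in these comparisons, and cytosolic ribosomal protein genes -0.359 and -0.296.

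The named members moved as follows. Among members well above background on all 6 arrays, Mrpl41 had the lowest fold against Eng-Flk1+ (-2.38 ± 0.93, adjusted p = 0.925) and Eng+Flk1+ replicate 3 was the lowest of the 6 arrays. Mrpl1 (-2.13) and Mrpl19 (-1.99) came next, and Mrpl9 (1.37), Mrpl48 (1.34) and Mrpl3 (1.06) had the highest folds. Against Eng+Flk1-, again among members well above background on all 6 arrays, the lowest were Mrps23 (-3.17), Mrps31 (-2.65) and Mrpl1 (-2.25), and the highest Mrps36 (1.09), Mrps10 (0.88) and Mrpl23 (0.85).
Mrps23, a mitochondria-specific protein of the small subunit, had levels of -0.93, -1.97 and -1.01 in Eng+Flk1+, 1.07, -3.97 and 1.78 in Eng-Flk1+, 1.61, 1.57 and 2.43 in Eng+Flk1-, and 2.43, 2.02 and -0.42 in Eng-Flk1-. In Eng+Flk1+ every array lay below those of Eng+Flk1- (log2 fold -3.17 ± 1.31, adjusted p = 0.699), and Eng-Flk1+ replicate 2 was the lowest of all.

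Mrps36 was ordered by Flk1 on its brightest probe. It had levels of 0.37, -0.18 and 0.01 in Eng+Flk1+, 0.92, 0.78 and 1.1 in Eng-Flk1+, -1.23, -0.60 and -1.24 in Eng+Flk1-, and -0.62, -0.55 and -1.38 in Eng-Flk1-. The 6 Flk1-positive arrays lay above the 6 Flk1-negative ones. How many of all genes showed this order was not counted. The dimmer Mrps36 probe did not keep the order. Its mean level was -3.65 in the double-positive fraction, below the -2.44 of the Endoglin-only fraction. The Flk1-only mean of -1.34 was its highest. Its lowest was the Eng-Flk1- mean of -6.09, where 1 of 3 arrays was well above background. No call was made on either probe. The brightest probe had log2 folds of 1.78 ± 0.40 in Eng-Flk1+ against Eng-Flk1- (adjusted p = 0.0522) and 1.09 ± 0.40 in Eng+Flk1+ against Eng+Flk1- (adjusted p = 0.581).

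On the brightest probes, the effect of Endoglin status differed with Flk1 status for 1 member, Mrpl30. Of all genes, 0.273% passed this test of the difference (0.0132% higher, 0.26% lower). For Mrpl30, the Eng+Flk1+ minus Eng-Flk1+ fold was -0.52 ± 0.65, the Eng+Flk1- minus Eng-Flk1- fold was 5.87 ± 0.65, and the difference was -6.40 ± 0.92 (adjusted p = 0.0245). At an unadjusted p under 0.05, 18 members had a negative difference (24%, where 6.43% of all genes did) and 0 a positive one (where 4.09% did). Tested one by one, 2 of 120 member probes passed, where 0.546% of all probes did. They brought in Mrpl1 through a probe other than its brightest. The 1 call on the brightest probes became 5, 6 and 2 calls when the Eng-Flk1- arrays were dropped in turn. No call was left when Eng-Flk1+ replicate 1 or 3 was dropped, when Eng+Flk1- replicate 2 or 3 was, and with the slide as a block.

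The number of probes bears on how firmly a single gene can be read. The 75 members had 125 probes, 42 members with 1 probe and 33 with 2 to 4, and the brightest probe stood for the gene above. Of the 29 members with 2 or more tested probes, all probes had the same sign in 14 for Eng+Flk1+, 14 for Eng-Flk1+ and 13 for Eng+Flk1-, each against Eng-Flk1-. Tested one by one, 8, 9 and 10 of the 120 tested member probes were called, against 3.03%, 2.61% and 2.02% of all probes. These calls brought in 4 members that the brightest probe did not: Mrpl1 in all 3 comparisons, Mrpl38 in all 3, Mrps17 in the 2 Endoglin-positive fractions and Mrps9 in Eng-Flk1+.

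Mrpl1, with a counterpart in bacteria, shows how far probes of a gene could part. Its brightest probe had levels of 0.84, -1.39 and -5.14 on the Eng-Flk1- arrays and was not called. The second probe, at chr5:96504618-96504677 on mm8, had levels of 0.24, -0.96 and -1.64 in Eng+Flk1+, 1.33, 0.09 and 0.88 in Eng-Flk1+, 1.5, 0.86 and 1.54 in Eng+Flk1-, and -4.48, -3.20 and -4.61 in Eng-Flk1-, with no overlap between Eng-Flk1- and the rest. Its log2 folds against Eng-Flk1- were 3.31 ± 0.62 in Eng+Flk1+ (adjusted p = 0.0176), 4.86 ± 0.62 in Eng-Flk1+ (adjusted p = 0.00302) and 5.39 ± 0.62 in Eng+Flk1- (adjusted p = 0.00243). The third probe went against both, at -0.04, -1.26 and -0.75. Both probes with positive folds are shown, as the pair that disagreed on Eng-Flk1- replicate 1.
Mrpl1 brightest: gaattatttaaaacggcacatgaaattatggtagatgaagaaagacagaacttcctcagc
Mrpl1 second: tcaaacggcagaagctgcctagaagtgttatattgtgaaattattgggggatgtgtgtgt

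Mrpl38, found in mitochondrial ribosomes alone, was called through its dimmest probe. That probe had levels of -0.18, -0.49 and -1.54 in Eng+Flk1+, -3.15, -3.67 and -0.82 in Eng-Flk1+, -3.29, -1.57 and -2.62 in Eng+Flk1-, and -7.97, -7.41 and -7.06 in Eng-Flk1-. All Eng-Flk1- arrays lay below the rest, and on none of them was the probe well above background. With each Eng-Flk1- value raised as for Mrps24, the probe was at least 28.5-fold higher in Eng+Flk1+, 8.15-fold higher in Eng-Flk1+ and 8.43-fold higher in Eng+Flk1-. The limma test used the values as measured and not these bounds (adjusted p = 0.00144, 0.00837 and 0.00947 in the same order). The log2 folds of the brightest probe were 2.67, 2.43 and 3.67 (adjusted p = 0.189, 0.213 and 0.0838). Its middle probe was not called, with mean levels of -0.70, -1.89 and -2.32 against -1.57 in Eng-Flk1-. The second probe of Mrps17 was well above background on 1 Eng-Flk1- array. The brightest Mrps17 probe was not called in Eng+Flk1+ or Eng+Flk1- (adjusted p = 0.899 and 0.965 in limma). The dimmest probe of Mrps9 was well above background on no Eng-Flk1- array, so that it was at least 12.3-fold higher in Eng-Flk1+ than in Eng-Flk1- (adjusted p = 0.048). The brighter Mrps9 probes were not called there (adjusted p = 0.484 and 0.948). The dimmest Mrps9 probe was bright in the Flk1-only fraction alone, with a mean level of -1.95 against -7.77 in Eng-Flk1-. Of the double-positive arrays, 0 of 3 were well above background for it (mean level -8.38). Of the Endoglin-only arrays, 1 of 3 was (mean level -6.54). The difference in this probe thus did not set Eng-Flk1- apart from all other fractions.

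Probes that lie close together differed less in profile than others at the median, but not in every gene. After each probe was set to its own mean over the arrays, pairs whose positions lay within 200 bases differed by a median of 0.607 in level (14 pairs in 10 genes), and pairs further apart by 1.28 (49 pairs in 22 genes), a limit chosen after the values were seen. The close pairs ranged from 0.102 to 2.41, the widest being the brightest and the dimmest probe of Mrps9, whose genome intervals overlap although that of the brightest is longer than the probe, and the next a pair of Mrps6 at 1.45. The 2 probes of Mrps23, which share 21 bases (capitals), both placed Eng-Flk1+ replicate 2 lowest, at -3.97 and -4.69.
Mrps23 brightest: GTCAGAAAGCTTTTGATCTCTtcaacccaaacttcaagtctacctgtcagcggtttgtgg
Mrps23 second: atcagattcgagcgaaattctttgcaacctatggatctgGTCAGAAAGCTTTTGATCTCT
The 3 probes of Mrps33 likewise all placed Eng-Flk1- replicate 2 high (2.85, 2.41 and 1.84) and replicate 3 low (-4.0, -2.47 and -5.22). In Mrps23 and Mrps33 the low arrays were thus read by more than 1 spot.

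**Figure D5:**
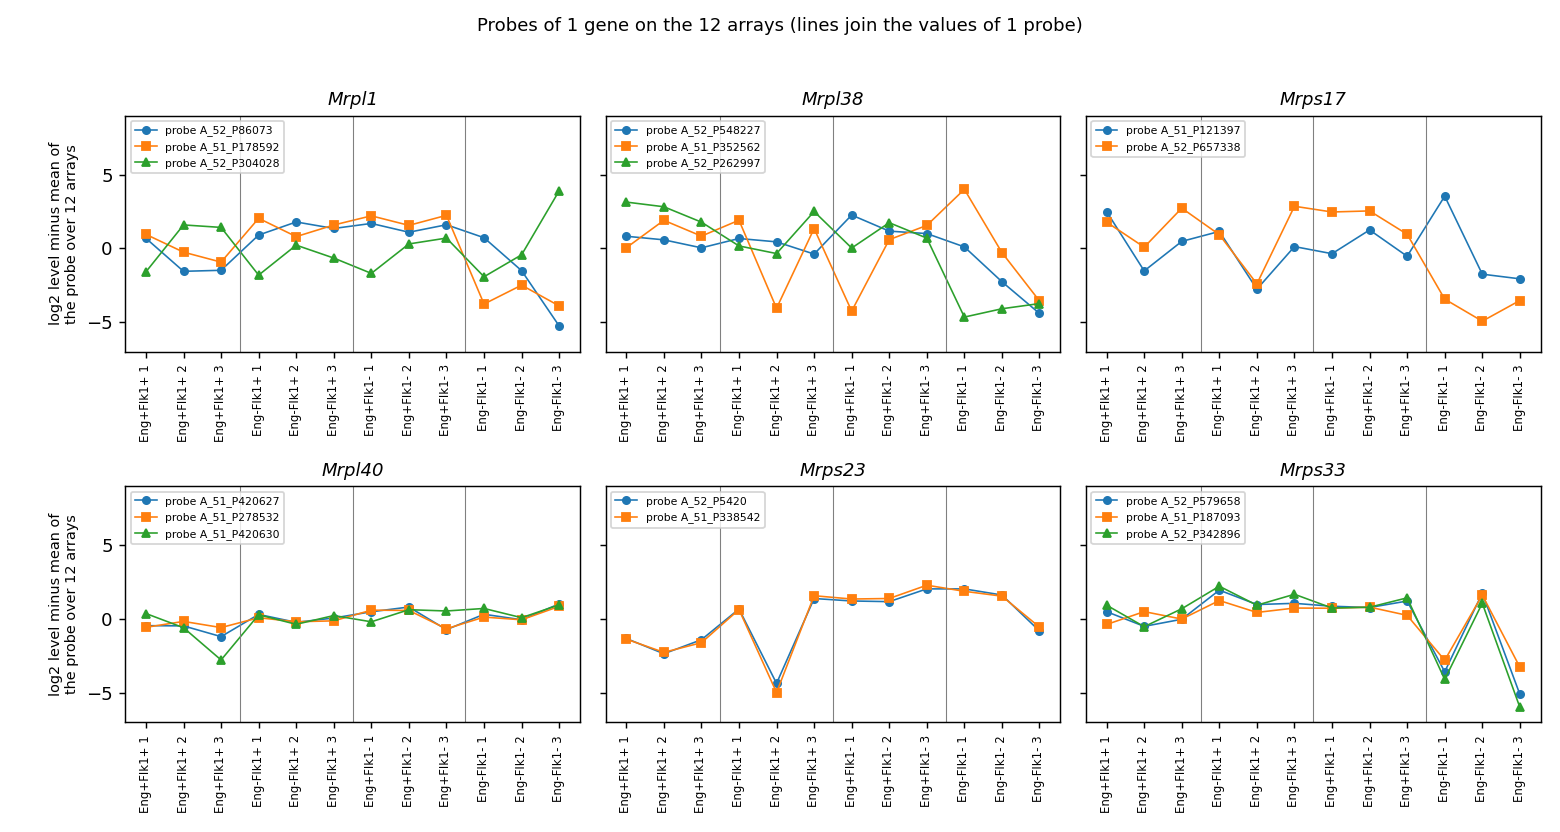
Log2 level of each tested probe minus its own mean over the 12 arrays (y axis) for 6 members with several probes, with arrays along the x axis and lines joining the values of 1 probe. The probes of Mrpl1, Mrpl38 and Mrps17 part on the Eng-Flk1- arrays, and those of Mrps23 and Mrps33 move together, with Mrps33 low on Eng-Flk1- replicates 1 and 3.

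Some promoters of the members hold short sequences known to bind factors of nuclear genes for mitochondria. RefSeq promoter windows of 300 bases (250 before and 50 after a gene's start, GRCm38.p6) were found for 66 of the 75 members, 72 windows in all. The NRF1 motif was in 16.7% of the member windows and 4.6% of all 32851 windows, searched on both strands. The letters CCGGAAG of Ets factors such as GABPA were in 33.3% against 8.86%, the letters AAGATGGC of YY1 in 15.3% against 2.75%, and TATAAA in 6.94% against 13.6%. No motif searched is contained in another. Among windows of protein-coding genes the shares were 6.38%, 11.6%, 3.05% and 12.6%. NRF1 or Ets letters were in 33 of the 72 member windows. A match describes the letters and is no evidence of binding.

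The windows of Mrpl30 (chr1:37890227-37890526, plus strand), Mrpl33 (chr5:31613701-31614000, plus strand) and Mrpl37 (chr4:107066817-107067116, minus strand), all on GRCm38.p6, each hold a different one of these matches, in capitals: NRF1 letters in Mrpl30, Ets letters in Mrpl33 and YY1 letters in Mrpl37. Not all called members hold a match. Mrpl24 and Mrpl41 hold none, Mrpl3 and Mrpl21 hold Ets letters, and Mrpl48 has windows with Ets letters, with TATAAA and with none.
Mrpl30 promoter: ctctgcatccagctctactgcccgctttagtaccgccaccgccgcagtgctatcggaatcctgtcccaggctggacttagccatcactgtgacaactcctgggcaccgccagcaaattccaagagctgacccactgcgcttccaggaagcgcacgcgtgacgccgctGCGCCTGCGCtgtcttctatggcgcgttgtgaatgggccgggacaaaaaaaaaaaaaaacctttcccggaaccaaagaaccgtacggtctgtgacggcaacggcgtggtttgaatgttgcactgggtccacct
Mrpl33 promoter: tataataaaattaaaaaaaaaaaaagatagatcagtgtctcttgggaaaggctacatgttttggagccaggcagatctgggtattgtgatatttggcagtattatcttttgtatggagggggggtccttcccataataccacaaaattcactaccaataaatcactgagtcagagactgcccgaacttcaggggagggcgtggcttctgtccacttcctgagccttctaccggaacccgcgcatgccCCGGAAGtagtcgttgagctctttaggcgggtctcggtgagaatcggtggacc
Mrpl37 promoter: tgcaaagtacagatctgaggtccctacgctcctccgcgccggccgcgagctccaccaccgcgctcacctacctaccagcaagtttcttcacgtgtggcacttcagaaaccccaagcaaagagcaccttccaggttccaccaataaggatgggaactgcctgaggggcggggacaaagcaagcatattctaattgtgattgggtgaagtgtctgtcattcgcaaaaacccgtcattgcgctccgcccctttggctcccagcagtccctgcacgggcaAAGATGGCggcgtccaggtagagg

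Of the genes that work with the mitoribosome, few were called. Of 15 mitochondrial translation factors tested, 1 was called, Mrrf, which frees ribosomes after termination. Its levels were -2.10, -0.11 and -0.19 in Eng+Flk1+, 1.34, 0.98 and -0.11 in Eng-Flk1+, 1.13, 0.64 and 0.70 in Eng+Flk1-, and -5.66, -6.34 and -3.33 in Eng-Flk1-, with every Eng-Flk1- array below the 9 others. The log2 fold against Eng-Flk1- was 4.31 ± 0.81 in Eng+Flk1+ (adjusted p = 0.0219), 5.85 ± 0.81 in Eng-Flk1+ (adjusted p = 0.00636) and 5.93 ± 0.81 in Eng+Flk1- (adjusted p = 0.00688). Of 22 genes of mitoribosome assembly and ribosomal RNA modification, 1 was called, Mterf4, which takes part in assembly of the large subunit, with log2 folds of 2.85, 3.31 and 3.65 (adjusted p = 0.0207, 0.0126 and 0.00891) in the same order. That is 6.67% of the translation factors and 4.55% of the assembly genes, against the 2.39%, 1.91% and 1.46% of all genes given above. The median log2 folds were -0.603, 0.298 and -0.141 for the translation factors and 0.134, 0.172 and 0.0933 for the assembly genes. Not all folds were positive. Gfm1, a translation elongation factor, had a log2 fold of -2.65 in Eng+Flk1+ against Eng-Flk1- (adjusted p = 0.0521) and Noa1, an assembly factor, -3.45 (adjusted p = 0.0559), neither of them called and both chosen after their values were seen.

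Of 20 mitochondrial transfer RNA ligases, Pars2, which charges proline, was called in Eng+Flk1+ alone (log2 fold 4.37 ± 0.76, adjusted p = 0.0152). Of 10 genes for replication and transcription of mitochondrial DNA, the polymerase subunits Polg and Polg2 were called. Polg, the catalytic subunit, had levels of 2.95, 2.24 and 2.88 in Eng+Flk1+, 2.68, 2.12 and 2.12 in Eng-Flk1+, 1.75, 2.24 and 1.68 in Eng+Flk1-, and -3.32, -3.21 and -3.91 in Eng-Flk1-. All 3 Eng-Flk1- arrays lay far below the rest, with log2 folds of 6.17, 5.79 and 5.37 (adjusted p = 0.000123, 0.000176 and 0.00033). Polg2, the accessory subunit, was called in Eng+Flk1+ (4.98 ± 1.09, adjusted p = 0.0422) and Eng-Flk1+ (5.91 ± 1.09, adjusted p = 0.0226). None of the 7 mitoribosomal proteins under other names was called in any comparison by limma, and against Eng-Flk1- at most 2 had an unadjusted p under 0.05; their median log2 folds were -0.503, -0.812 and -0.814. Dap3, a guanine nucleotide-binding protein of the small subunit, had log2 folds against Eng-Flk1- of 2.26, 2.94 and 2.86 (adjusted p = 0.325, 0.193 and 0.239). It was the exception among the 7. In Eng-Flk1+ and in Eng+Flk1- it alone had a positive fold and 6 were negative, and in Eng+Flk1+ 2 were positive and 5 negative.

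Among related families, the respiratory chain and ATP synthase genes had 4, 3 and 4 of 79 members higher than in Eng-Flk1-, again with the double-positive, Flk1-only and Endoglin-only fractions in order. Of all genes, 1.98%, 1.64% and 1.24% were higher. The family's median log2 folds were 0.143, 0.519 and 0.542. The cytosolic ribosomal protein genes had 0 of 81 called by limma, with medians of -0.518, -0.145 and -0.217. At an unadjusted p under 0.05, 4 of them were lower in Eng+Flk1+, where 6.18% of all genes were. In Eng-Flk1+ 4 were higher and in Eng+Flk1- 1 was, where 9.69% and 8.84% of all genes were. Whether these families differ from the mitoribosomal members was not tested.

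Cell content differed between the fractions along with these levels. The log2 level of the summed signal of 8 visceral endoderm markers was 1.9 to 3.26 in Eng+Flk1+, 1.98 to 3.65 in Eng-Flk1+, 2.91 to 3.52 in Eng+Flk1- and 6.62 to 8.29 in Eng-Flk1-. That of 6 epiblast markers was 2.82 to 3.31, 2.81 to 3.65, 3.99 to 4.27 and 5 to 6.68, and that of 7 primitive erythroid markers was 0.46 to 1.95, 0.957 to 1.09, 3.02 to 4.01 and 4.6 to 5.35, in the same order. The summed level of all 3 lists was thus highest in Eng-Flk1-, where the members were lowest. Single markers differed from this: in Eng+Flk1- against Eng-Flk1-, the log2 fold was 3.61 for Klf1 (adjusted p = 0.543), 1.29 for Gata1 (adjusted p = 0.233) and 0.91 for Utf1 (adjusted p = 0.342), none of them called.
The 8 endothelial markers were at 5.02 to 5.71, 2.87 to 3.74, 0.408 to 1.09 and 0.704 to 2.11, highest in Eng+Flk1+. The 6 trophoblast markers were at 1.75 to 3.19, 1.58 to 2.76, 4.22 to 4.6 and 1.51 to 2.63, and the 6 allantois markers at 4.61 to 4.88, 4.08 to 4.74, 5.97 to 6.17 and 2.09 to 4.45, both highest in Eng+Flk1-. The part of these cell types in the members' differences was not tested.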

How the data were processed

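Each of the 12 arrays was scanned in 1 colour (Cy3) and read with Agilent Feature Extraction 10.5.1.1, per the file headers, which place the probes on mm8. The deposited intensity of a spot is background-subtracted and spatially detrended but not scaled between arrays, per the file headers. Flags of well above background are 0 or 1 per spot. The authors' deposited table holds intensity divided by each array's median, as its values show, and served as an alternative; the series' design text names GeneSpring GX, without settings. Per the labels' protocols, mRNA of 3000 cells was amplified by global PCR (SuperAmp) and 250 ng of cDNA was labelled. The number of arrays, 3 per fraction, limits the precision.

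Control spots (1639 per array) and outlier spots were left out, log2 of the processed intensity was taken, and each array's 75th percentile was subtracted. Names of the 41174 probes were updated through a RefSeq table (GRCm38.p6). The brightest probe by mean stood for a gene, and a gene was tested where it was well above background on all 3 arrays of a fraction. One model of the 4 fractions was fitted with limma 3.58.1 in R 4.3.3, with Benjamini-Hochberg adjustment over all tested genes, and was checked on simulated data. Same-numbered replicates did not deviate together, so the replicate number was not a block. Figures and sequence searches used Python.

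The members, lists and rule for naming were chosen with earlier results of these data known. Named were all members called; per comparison the 3 highest and 3 lowest folds among members well above background on all 6 arrays; members above background in 1 group and not in the other; members whose probes disagree, with examples; the Mrps18 genes; and up to 4 called genes of each list. Genes outside this rule (Mrpl55, Mrps6, Mrps7, Mrps12, Mrps21, Mrps30, Mrps33, Dap3, Gfm1, Noa1, Klf1, Gata1 and Utf1) were chosen after their values were seen. Alternatives were normexp, quantile scaling, the authors' table, 2 filters, slide and replicate blocks, a trend, array weights, mean over probes, fewer groups and leaving out each array.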

Additional observations from a re-analysis of the deposited data

Results flagged for a closer look

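On the brightest probes, a test of the difference between 2 effects singled out Mrpl30. The effect of Endoglin status was -0.52 ± 0.65 among Flk1-positive cells and 5.87 ± 0.65 among Flk1-negative cells, and the difference was -6.40 (adjusted p = 0.0245 in limma).

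In other members every array of 1 fraction moved one way and every array of another the opposite way. How many of all genes did both was not counted, so these members have no background to be read against. Taken singly, arrays did not overlap and were lower in Eng+Flk1+ for 6.42% of all genes against Eng-Flk1+ and 7.41% against Eng+Flk1-. They were higher than in Eng-Flk1- for 8.95% in Eng+Flk1- and 9.43% in Eng-Flk1+. Each fold here is Eng+Flk1+ minus Eng-Flk1+ first and Eng+Flk1- minus Eng-Flk1- after it. They were -2.13 and 3.48 for Mrpl1, -1.08 and 4.26 for Mrpl21, -2.38 and 4.60 for Mrpl41, and -1.53 and 2.22 for Mrpl54. The same was seen for Flk1 status, with Eng+Flk1+ minus Eng+Flk1- first and Eng-Flk1+ minus Eng-Flk1- after it: -2.25 and 3.36 for Mrpl1, -1.26 and 1.55 for Mrpl2, -1.26 and 4.07 for Mrpl21, and -1.29 and 2.46 for Mrpl54. The limma test of the difference, which is the same value for both pairs, did not pass on the brightest probe for any of them. Another probe of Mrpl1 did pass it. On the brightest probes the adjusted p was 0.265 for Mrpl1, 0.205 for Mrpl2, 0.0699 for Mrpl21, 0.0705 for Mrpl41 and 0.129 for Mrpl54.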

How the results depend on the processing

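No called fold and no median over the members changed direction under the alternatives run. Folds that were not called did under at least 1 of them for Mrpl3, Mrpl9, Mrpl27, Mrpl49, Mrps18a, Mrps23, Mrps25 and Mrps36. With Eng+Flk1+ first, Eng-Flk1+ next and Eng+Flk1- last, each against Eng-Flk1-, 5, 6 and 7 members were called and the medians were 0.661, 1.00 and 0.796. Normexp background gave 4 calls in Eng+Flk1- and medians of 0.203 in Eng+Flk1+ and 0.621 in Eng-Flk1+, and quantile normalization gave 4 calls in Eng+Flk1-. The authors' table gave 2 calls for Eng+Flk1+ and 3 for Eng+Flk1-, and medians of 0.0671, 0.398 and 0.230. With only genes detected on each of the 12 arrays the counts were 2, 3 and 3, and the medians 0.173 in Eng+Flk1+ and 0.571 in Eng-Flk1+. Without a filter the count was 3 in Eng+Flk1+. The slide as a block gave 0 calls in all 3, and medians of 1.41 in both single-positive fractions; within slide 1, Eng-Flk1+ gave 0 calls and 1.41. Array quality weights gave 1 call in Eng+Flk1+ and 2 in Eng+Flk1-, and only the groups compared gave 1, 2 and 3. For the test of the difference, 1 call became 0 with quantile normalization, the authors' table or the slide as a block, and 2 with the mean over probes. The cause of these changes was not tested.

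Leaving out 1 array gave 2 to 9, 1 to 12 and 1 to 12 calls, and 0 to 6 for the test of the difference. The medians then ranged from 0.276 to 0.82, 0.807 to 1.26 and 0.796 to 1.06. Against Eng-Flk1+ and against Eng+Flk1-, Eng+Flk1+ had 0 calls under every setting run, including the fit without the 3 Eng-Flk1- arrays that was added after seeing the data, and medians of -0.811 to -0.342 and -0.747 to -0.456 without 1 array. The replicate block gave 3, 4 and 4 calls and left 1 for the test of the difference. Deviations of same-numbered arrays correlated at -0.107 to 0.188, against -0.148 to 0.114 for arrays with different numbers. Such values show no strong shared deviation, but cannot tell whether same-numbered samples were handled together.

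Of 1077 recomputed values of single members, 896 kept their side of the threshold, 176 lost a call and 5 gained one. Values near background, frequent in Eng-Flk1-, limit folds against it.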
